A study of Arabidopsis thaliana with 4 samples.

Results

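Extensins are rod-like structural proteins of the plant cell wall. Their serine and hydroxyproline repeats carry short arabinose chains, and their tyrosines are joined by wall peroxidases into a network that is known to matter for root hair growth and for the response of walls to stress. AT5G06630, AT3G54580 and AT4G08380 are 3 genes of this family in Arabidopsis thaliana, and they are described here in roots with and without potassium. They were chosen by their measured signals at the 2 harvests, which differed in opposite directions: AT5G06630 and AT3G54580 measured higher at 96 h, and AT4G08380 lower. The 3 were found by their locus among 13513 probe sets annotated to exactly 1 gene, and each had 1 probe set (250682_x_at, 251842_at and 255138_at). The array carries 22746 probe sets beside its controls.

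The plants were of accession Col-0, 4 to 5 weeks old and raised in hydroponic culture, with all of them in control solution before the transfer. Starved plants were then moved to a potassium-free solution, in which phosphoric and nitric acid replaced 0.5 mM potassium phosphate and 1.25 mM potassium nitrate. Control plants were moved to fresh control solution with both salts. Roots were taken at 96 h or 48 h, and a mixture of roots made up each sample, so the spread between plants is not seen. RNA was hybridised to Affymetrix ATH1 arrays, and the 4 groups (starved 96 h, control 96 h, starved 48 h and control 48 h) held 1 array each. Without replicates, differences within a harvest or within a solution are values with no test, and the number of arrays limits their precision. In such tissue samples, fewer cells of a type and less RNA per cell cannot be told apart.

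AT5G06630 had a signal of 1899.6 in starved and 859 in control roots at 96 h. At 48 h its signal was 335 in starved and 456 in control roots. Its highest value was therefore on the starved 96 h array, and its lowest on the starved 48 h array. AT3G54580 had a signal of 846 in starved and 497 in control roots at 96 h. It measured 132 in starved and 164 in control roots at 48 h, which gives the arrays the same order as for AT5G06630. AT4G08380 ran the other way, with 119 in starved and 126 in control roots at 96 h. Its signal at 48 h was 333 in starved and 409 in control roots, so both 48 h values lay above both 96 h values.

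**Figure D1:**
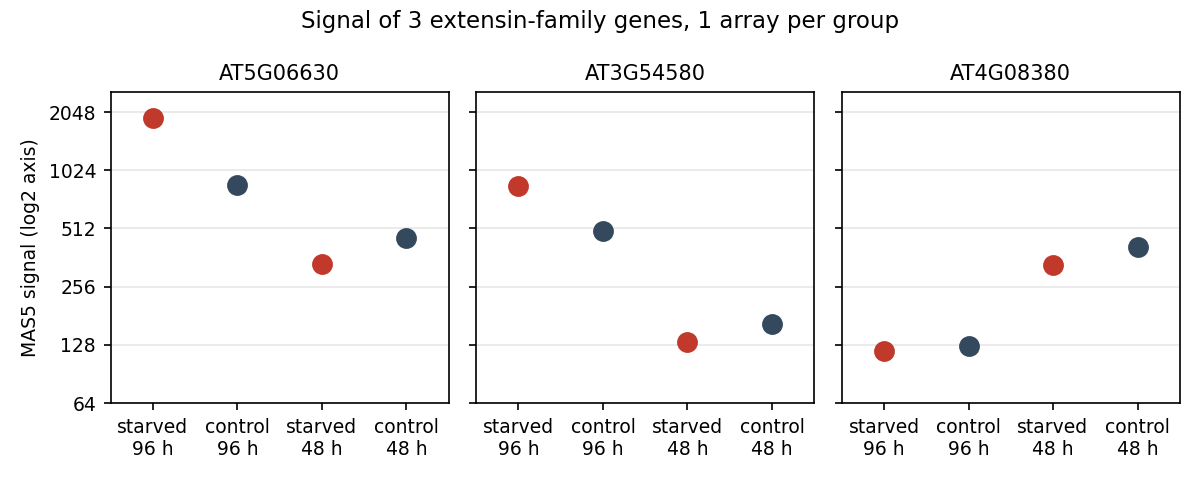
MAS5 signal (log2 axis) of AT5G06630, AT3G54580 and AT4G08380 on each of the 4 arrays, starved roots in red and control roots in dark blue, 1 point per array and no error bars because each group held 1 array. AT5G06630 and AT3G54580 are highest on the starved 96 h array (1899.6 and 846), and AT4G08380 is highest on the control 48 h array (409).

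The harvest contrast chose these genes, so its sizes are a description. Folds and log2 differences are those of the signal plus 16, a constant that damps the noise of dim probe sets. In starved roots AT5G06630 was 5.45-fold higher at 96 h than at 48 h, and AT3G54580 was 5.83-fold higher. In control roots the same comparison gave 1.85-fold for AT5G06630 and 2.85-fold for AT3G54580. AT4G08380 was 2.59-fold lower at 96 h in starved roots and 2.98-fold lower in control roots. Over the 13998 probe sets that passed a filter on low values, 1.56% were at least 2-fold higher at 96 h in starved roots and 1.21% in control roots. At least 2-fold lower were 0.907% in starved and 0.400% in control roots. Across the tested probe sets the log2 harvest differences had an SD of 0.42 in starved and 0.37 in control roots.

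Potassium starvation went with opposite differences at the 2 harvests for the pair that measured higher at 96 h. These differences use the same arrays as the harvest contrast that chose the genes, so they and their ranks are not independent of that choice. AT5G06630 was 2.19-fold higher in starved than in control roots at 96 h (log2 difference 1.13) and 1.34-fold lower at 48 h (-0.43). It ranked 30 among the 13998 tested probe sets, counted from the highest difference, at 96 h. AT3G54580 was 1.68-fold higher in starved roots at 96 h (0.75, rank 158) and 1.22-fold lower at 48 h (-0.29). AT4G08380 stood slightly below the control at both harvests, by -0.08 on the log2 scale at 96 h and by -0.28 at 48 h. At least 2-fold higher in starved roots were 0.357% of tested probe sets at 96 h and 0.0429% at 48 h, and AT5G06630 was the only 1 of the 3 past that fold, at 96 h. After quantile normalization its log2 difference was 0.98 and none of the 3 was past it. At least 2-fold lower were 0.493% at 96 h and 0.100% at 48 h, with none of the 3 among them. Across the tested probe sets these log2 differences had an SD of 0.29 (96 h) and 0.24 (48 h).

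The difference between the 2 starvation differences (96 h minus 48 h) was 1.56 log2 units for AT5G06630, which ranked 9 of 13998, and 1.03 for AT3G54580, which ranked 70. Only 0.55% of tested probe sets reached 1 log2 unit on this side. For AT4G08380 it was 0.20, within the SD of 0.36 over all tested probe sets. With 1 array per group no residual is left for a test of this interaction. The same quantity is the harvest difference in starved roots minus that in control roots, so it is not independent of the contrast that chose the genes.

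Averaged over the harvests, none of the 3 passed the limma test for starvation. This test fits solution and time to all 4 arrays, and its error comes mostly from a spread shared across probe sets. The mean log2 difference of starved minus control roots was 0.35 ± 0.25 (SE, 2 arrays per solution) for AT5G06630, with a limma adjusted p of 0.900. It was 0.23 ± 0.20 for AT3G54580 (limma adjusted p = 0.957) and -0.18 ± 0.15 for AT4G08380 (limma adjusted p = 0.950). For the first 2 genes the mean joins differences of opposite sign. Over all tested probe sets limma called 27, or 0.193%, for starvation, with 0.121% higher and 0.0714% lower, and 1035, or 7.39%, had an unadjusted p below 0.05.

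The arrays differed in ways that bear on these values. At 96 h, all 9 BioB, BioC, BioDn and CreX probe sets (hybridisation controls from bacterial and phage genes) were higher on the starved than on the control array, with a median ratio of 2.06. The same ratio was 1.51 over 10 GAPDH and ubiquitin control probe sets and 1.18 over 6 actin ones. Each of the hybridisation controls was lowest on the control 96 h array. CreX-3 read 1758 on the starved and 856 on the control array at 96 h, and 1723 and 1495 at 48 h. The control 96 h array also enters the harvest differences in control roots and the gap between the harvest differences in starved and control roots. Under cyclic loess and quantile normalization, which even out shifts that depend on signal level, the 96 h log2 difference of AT5G06630 was 1.06 and 0.98 (under 2-fold in the second), and that of AT3G54580 was 0.77 and 0.73. At 48 h, the median ratio of the hybridisation controls was 1.34, and the array's 25S ribosomal RNA control read 795.5 on the starved and 58.7 on the control array. The part of these array differences in the extensin values was not tested beyond those normalizations.

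The wider family was set beside the 3 genes through a list of 20 extensin and extensin-like genes, of which 12 had a named probe set. AT4G08370 and AT5G19810 did not pass the filter, with signals of at most 14.0 on any array. The other 10 were above the filter's limit, the 40th percentile of each array, on all 4 arrays, so no gene passed it only through the arrays where it was high. At 96 h, 9 of the 10 measured higher than at 48 h in both solutions, and AT4G08380 was the exception. Of all tested probe sets, 49.9% measured higher at 96 h in starved roots and 48.2% in control roots. The median log2 harvest difference over the 10 was 1.58 in starved and 0.60 in control roots, against medians of 0.00 and -0.01 over all tested probe sets. In starved roots 8 of the 10 were at least 2-fold higher, beside 1.56% of tested probe sets, and in control roots 3 were, beside 1.21%. Without the 3 chosen genes the counts were 6 of 7 in starved and 2 of 7 in control roots, and the medians 1.46 and 0.50.

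**Figure D2:**
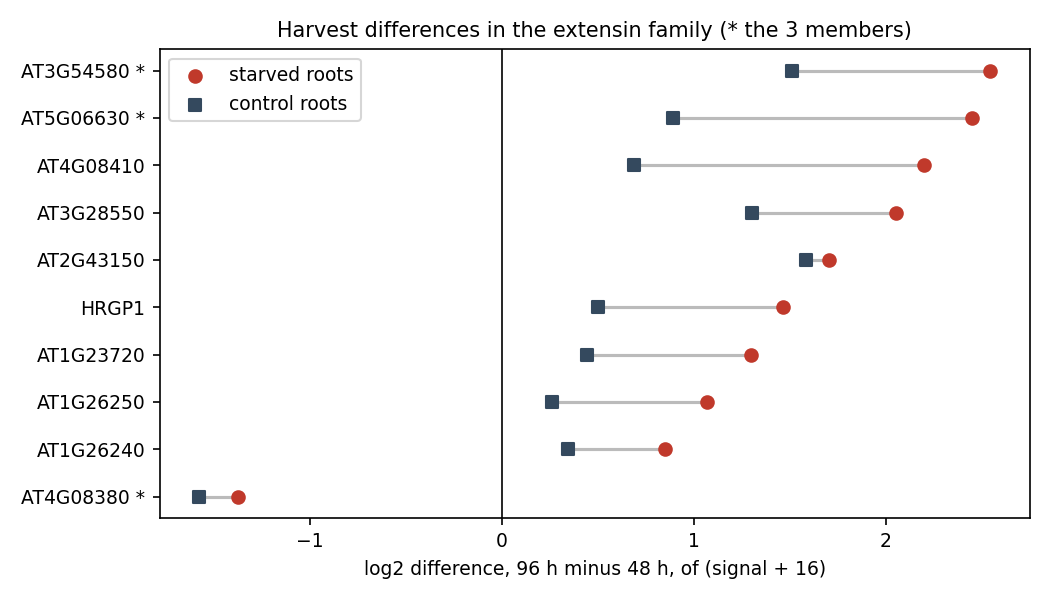
Log2 difference of signal plus 16 between 96 h and 48 h (x axis) for the 10 extensin-family genes above the filter, sorted by the value in starved roots (red circles), with control roots as dark blue squares and a grey line joining the pair. AT3G54580 stands highest at 2.54 in starved and 1.51 in control roots, and AT4G08380 is the only gene left of 0.

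Members of the family differed in how far the solutions parted. HRGP1 (AT3G54590), which lies beside AT3G54580 with no protein-coding gene between them in the RefSeq annotation, had 1969.7 in starved and 1129 in control roots at 96 h, and 704 in starved and 792 in control roots at 48 h. Its harvest difference was 1.46 log2 units in starved and 0.50 in control roots, so it followed the same course as its neighbour with smaller steps. AT4G08410 measured 765 in starved and 354 in control roots at 96 h, and 154 in starved and 214 in control roots at 48 h. It lies on the same chromosome as AT4G08380, with 4 protein-coding genes between them, yet the courses of these near neighbours were opposite. AT2G43150 was higher at 96 h by nearly the same step in both solutions, 1.70 log2 units in starved and 1.58 in control roots, and the starved and control values at 96 h were 195 and 199.

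AT3G28550 measured 630 in starved and 467 in control roots at 96 h, and 140 in starved and 179.8 in control roots at 48 h. Steps of 1.30 and 1.07 log2 units in starved roots were seen for AT1G23720 and AT1G26250, where control roots gave 0.44 and 0.26. AT1G26240 had the smallest step among the 9 in starved roots, with 0.85, and 0.34 in control roots. For each of the 10 genes the harvest difference was more positive in starved than in control roots, a direction found for 51.7% of all tested probe sets. The median of this gap was 0.83 log2 units over the 10 and 0.80 over the 7 genes other than the chosen ones, against 0.01 over all tested probe sets.

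Between solutions, 8 of the 10 genes measured higher in starved roots at 96 h, and all 10 measured lower in starved roots at 48 h. Over all tested probe sets 49.9% were above 0 at 96 h and 52.7% below 0 at 48 h. The family's median log2 difference was 0.51 at 96 h and -0.28 at 48 h, against 0.00 and -0.01 over all tested probe sets. The combination of higher at 96 h and lower at 48 h was found in 8 of the 10 genes and in 26.0% of tested probe sets. AT5G06630 and AT4G08410 were at least 2-fold higher in starved roots at 96 h, AT4G08410 by 2.11-fold, beside 0.357% of tested probe sets. The other 6 of these 8 genes lay between 0.34 and 0.79 log2 units at 96 h. limma called 0 of the 10 for starvation over both harvests, beside 0.193% of tested probe sets, the lowest adjusted p being 0.857 for HRGP1. None of them had an unadjusted p below 0.05, beside 7.39%. For the 8 genes with opposite signs, the mean that limma tests joins differences that partly cancel.

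**Figure D3:**
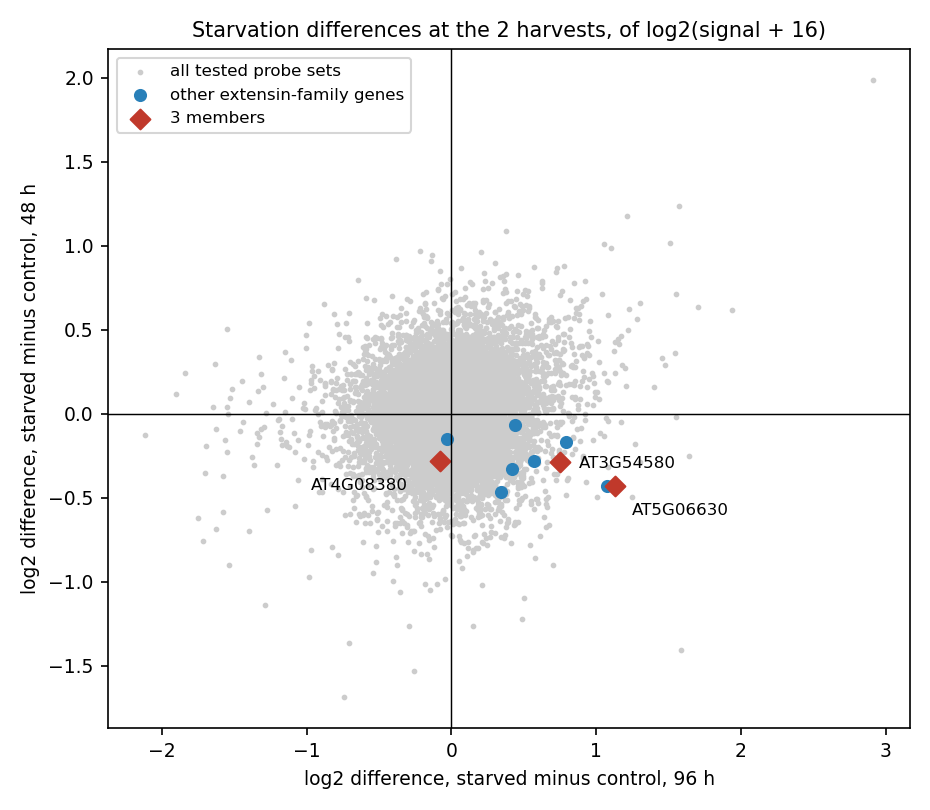
Log2 difference of signal plus 16 between starved and control roots at 96 h (x axis) and 48 h (y axis) for 13998 tested probe sets (grey), the 7 other extensin-family genes (blue circles) and the 3 chosen genes (red diamonds). All 10 family genes lie below 0 on the y axis, and AT5G06630 lies farthest to the right of them at 1.13.

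The probe sets limit how far these genes can be told apart. Repeats shared across extensins can let a transcript bind the probes of another family member, and the ending _x_at marks a probe set with probes that may also match other transcripts. It is carried by the probe sets of AT5G06630, AT4G08410, HRGP1 and AT1G23720. The 10 values are therefore not 10 independent measurements, and how much signal the family members share was not tested. The 4 _x_at probe sets had median log2 starvation differences of 0.94 (96 h) and -0.36 (48 h), and the 6 other family probe sets had 0.38 (96 h) and -0.28 (48 h). Of those 6, 4 were higher in starved roots at 96 h and all 6 lower at 48 h. Between harvests, the median log2 difference was 1.83 in starved and 0.60 in control roots for the _x_at probe sets, and 1.38 and 0.82 for the others. Probe set 255139_s_at is listed for 2 genes, and any gene on the extensin list was enough to include it. It read 142 in starved and 38.0 in control roots at 96 h, and 25.5 in starved and 26.1 in control roots at 48 h.

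Profiles over the 4 arrays were compared with those of 7586 other tested probe sets with 1 gene, as the root-mean-square difference of log2 values after each profile was centred on its mean. The profile most like that of AT5G06630 was AT4G08410, at 0.11 log2 units, and both are _x_at probe sets. AT4G17670 followed at 0.21, AT3G54580 at 0.23, AT5G44730 at 0.23 and AT2G36950 at 0.25. For AT3G54580 the closest were AT4G31020 at 0.08, AT2G41730 at 0.15, AT3G27220 at 0.17, AT5G44730 at 0.18 and CML38, a calmodulin-like protein gene, at 0.21. Of these 5, CML38 was the only gene clearly lower in starved roots at 48 h, with a log2 difference of -0.77, and the other 4 lay between -0.05 and 0.18. AT4G31020 and AT2G41730 met the filter only through their 96 h arrays, so their direction between harvests is fixed by it. For AT4G08380 the closest were AT5G62340 at 0.15, AT4G11190, of the dirigent family, at 0.17, AT1G17300 and AT3G57010 at 0.19, and AT2G39980 at 0.20. Of these 5, AT4G11190, AT1G17300 and AT2G39980 met the filter only through their 48 h arrays, which fixes their direction between harvests. The signal of AT5G62340 was 163 in both starved and control roots at 96 h, and 347 in starved and 437 in control roots at 48 h. AT5G06630 and AT3G54580 lay 1.63 and 1.78 log2 units from AT4G08380.

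Genes that encode related wall proteins or act on extensins were described from further lists. Leucine-rich repeat extensins are chimeric proteins that join a leucine-rich repeat domain to an extensin domain, and of 11 listed genes 8 were measured and 4 met the filter. All 4 measured higher at 96 h in both solutions, beside 49.9% (starved) and 48.2% (control) of tested probe sets. Their median log2 difference between harvests was 1.21 in starved and 0.82 in control roots. AT4G18670 and AT2G15880 passed the filter only through their 96 h arrays, which fixes that direction for them. AT3G24480 and AT3G22800 passed on all 4 arrays, with 0.92 and 1.77 in starved and 0.82 and 0.83 in control roots. AT3G22800 measured 441 in starved and 455 in control roots at 96 h, and 118 in starved and 249 in control roots at 48 h. At 96 h the starvation difference of AT2G15880 had the opposite sign to that of AT5G06630: it read 74.5 in starved and 177.9 in control roots, 2.14-fold lower. limma called 0 of the 4 for starvation, with 2 at an unadjusted p below 0.05, beside 0.193% and 7.39% of tested probe sets.

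Of 12 listed enzymes that hydroxylate or glycosylate extensins, 4 glycosyltransferases were measured, and all 4 passed the filter. XEG113, an arabinosyltransferase of extensins, measured 212 in starved and 201 in control roots at 96 h, and 260.3 in starved and 241 in control roots at 48 h. The other 3, AT5G13500, AT3G57630 and AT3G01720, had harvest differences between -0.10 and 0.17 log2 units in starved and between -0.35 and 0.01 in control roots. None of the 4 reached 2-fold in any of the 4 comparisons. Of tested probe sets, between 0.0429% and 1.56% did so, by comparison and direction. limma called 0 of the 4 for starvation, with 0 at an unadjusted p below 0.05, beside 0.193% and 7.39% of tested probe sets. At such shares, counts of 0 among 4 genes do not set this list apart from other probe sets. Class III peroxidases linked to extensin cross-linking had 6 of 10 listed genes measured, of which 5 passed the filter. All 5 measured lower at 96 h in control roots (median -0.41), beside 51.8% of tested probe sets. In starved roots 3 of 5 did (median -0.21), beside 50.1%. All 5 were higher in starved than in control roots at 96 h, beside 49.9% of tested probe sets. Of these, AT1G44970 (0.02 log2 units) and AT5G39580 (0.19) lay within the SD of 0.29 over tested probe sets. The widest was AT5G64120 (PRX71), with a signal of 127 in starved and 63.2 in control roots. limma called 0 of the 5 for starvation (lowest adjusted p = 0.297, for AT5G64120), beside 0.193% of tested probe sets. Of the 5, 2 had an unadjusted p below 0.05, beside 7.39%.

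**Figure D4:**
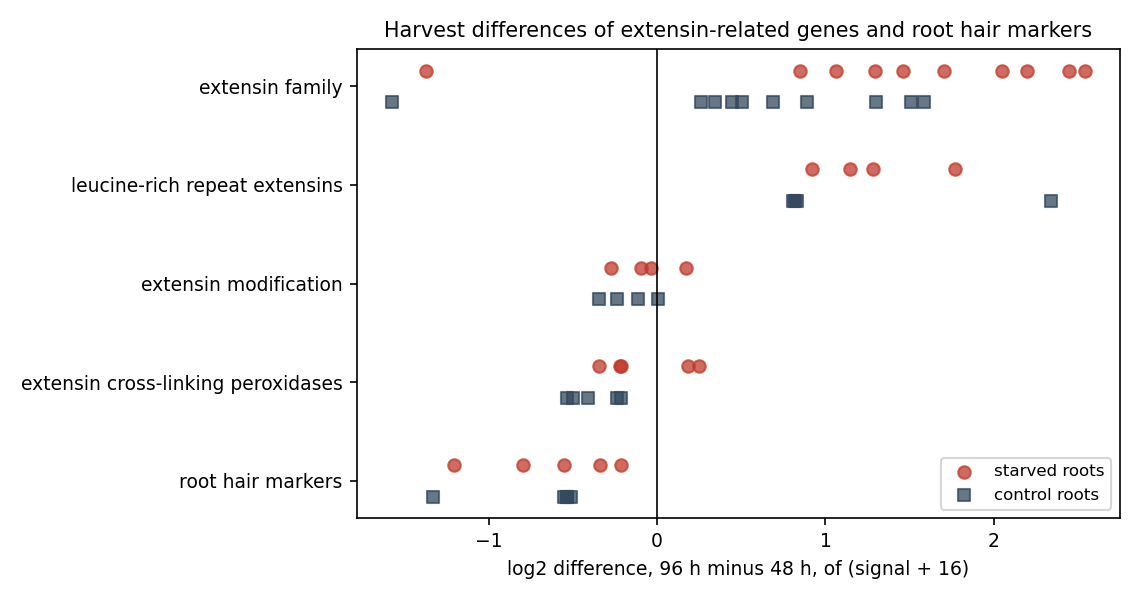
Log2 difference of signal plus 16 between 96 h and 48 h (x axis) for the genes of 5 lists that passed the filter, starved roots as red circles above and control roots as dark blue squares below in each row, 1 point per gene (AT4G26010 is on both the peroxidase and the root hair list). Leucine-rich repeat extensins lie right of 0 with 9 of 10 extensin-family genes, and all 5 root hair markers lie left of 0. AT4G18670, AT2G15880 and XTH26 passed the filter only through the harvest where they are high, which fixes their side of 0.

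Root hairs are a site where extensins are needed, so markers of these cells were read on the same arrays. Of 16 listed markers 5 were measured, and none was at 0 on any array. Their summed signal was 1983 in starved and 1372 in control roots at 96 h, and 2536 in starved and 2049 in control roots at 48 h. Most of this sum came from AT4G26010, with 1181 and 849 at 96 h, and 1371 and 1236 at 48 h. All 5 were lower at 96 h in both solutions, the same side as AT4G08380 and the opposite side to the 9 other family genes. Their medians were -0.55 in starved and -0.54 in control roots. Of all tested probe sets, 50.1% measured lower at 96 h in starved roots and 51.8% in control roots. XTH26, a xyloglucan-modifying enzyme of root hairs, differed by -1.21 in starved and -1.33 in control roots, sizes close to those of AT4G08380, but it met the filter only through its 48 h arrays, which fixes that direction for it. In starved against control roots the 5 markers were higher at both harvests. Of tested probe sets, 49.9% were above 0 at 96 h and 47.3% at 48 h. AT4G08380 was lower at both, but its -0.08 log2 units at 96 h lay within the SD of 0.29 over tested probe sets. limma called 0 of the 5 for starvation, and 3 had an unadjusted p below 0.05, beside 0.193% and 7.39% of tested probe sets. The part of a changed share of root hair cells in the extensin values was not tested. Lists for non-hair epidermis, endodermis, xylem and stele, root cap and green tissue, and for extensin-like receptor kinases and proline-rich proteins, had no named probe set here. The annotation used lists no gene for 8730 of 22746 probe sets, so unmeasured genes of any list may still be on the array.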

How the data were processed

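Root RNA of 4 samples was measured on 1-colour ATH1 arrays, 1 per combination of solution and time. The authors deposited 1 signal intensity (linear scale) per probe set and array. MAS5 made these values, per the submitters' processing notes, with version, settings and genome build not given in the sources used. Every array had a 2% trimmed mean of 100.01. Without the array's 64 controls, log2(value + 16) was used. Probe sets at or above the array's 40th percentile on at least 2 of 4 arrays were tested: 13998 of 22746. Names came from the platform annotation, updated through Entrez identifiers to the RefSeq table of assembly TAIR10.1 (13436 of 13513 matched). No coordinates or sequences are given.

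limma 3.58.1 in R 4.3.3 fitted solution and time (lmFit, eBayes with trend), with 1 residual degree of freedom and 14.94 prior ones, and Benjamini-Hochberg adjustment over 13998 probe sets at 0.05. Real interaction counts as error. The fit was tested on simulated data. Labels do not state separate cultures, and p-values here measure no spread between like arrays.

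The members and 12 gene lists (118 genes, 34 measured) were chosen with earlier results of these data known. Named were the 3 members, every measured gene of the extensin family list, up to 5 genes of each other list by mean harvest difference, and the 5 closest profiles per member. Alternatives were the pseudocount (1, 64), the filter, 3 normalizations and no time term. Replicate numbers paired no samples.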

Additional observations from a re-analysis of the deposited data

Results flagged for a closer look

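For 6 extensin-family genes the starved roots lay below the control at 48 h and above it at 96 h, each by more than the SD over all tested probe sets. Of all tested probe sets, 26.0% had these signs at any size, and the share past the SD was not counted. AT5G06630 and AT3G54580 are among the 6 and were chosen by their signals on these same arrays. The difference between the harvests was not tested, because each group held 1 array. For AT5G06630 the log2 difference of starved minus control roots was 1.13 at 96 h and -0.43 at 48 h, and for AT3G54580 it was 0.75 and -0.29. AT4G08410 stood at 1.08 at 96 h and -0.43 at 48 h. AT1G23720 stood at 0.57 and -0.28, AT3G28550 at 0.42 and -0.33, and AT1G26250 at 0.34 and -0.46. The probe sets of AT5G06630, AT4G08410 and AT1G23720 may share signal with other family members.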

How the results depend on the processing

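All 108 values of the 3 members under the alternatives kept their direction, and no starvation effect of a member passed the limma threshold under any of the 8 alternatives (adjusted p from 0.866 to 1.00). The harvest differences of 2 members moved by more than their residual SD with a pseudocount of 64: AT3G54580 to 2.22 in starved and 1.30 in control roots, and AT4G08380 to -1.12 in starved and -1.31 in control roots. Of the extensin family, 1 gene in place of 2 was at least 2-fold higher in starved roots at 96 h with a pseudocount of 64 or after quantile normalization. The 27 limma calls for starvation became 5 with a pseudocount of 1, 10 after quantile normalization, 0 unfiltered (with 1346 unadjusted p-values below 0.05) or without the time term (278), and 4 with the 60th percentile as the filter, with equal medians or after cyclic loess.

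Counts of probe sets past 2-fold depended most on the pseudocount. With 1 and with 64, in that order, 284 and 80 probe sets were higher at 96 h than at 48 h in control roots (169 as reported) and 142 and 13 lower (56). In starved roots 344 and 108 were higher (218) and 250 and 49 lower (127). For starved against control roots at 96 h, 96 and 12 were higher (50) and 131 and 28 lower (69), and at 48 h 40 and 1 were higher (6) and 52 and 0 lower (14). At 48 h, 22 were higher and 23 lower without the filter, and 3 higher and 7 lower with the 60th percentile as the filter, which left 28 higher at 96 h. Of the counts of the other lists, 8 moved. No paired analysis was possible because the groups share only replicate number 1, so that number cannot serve as a block; the time term already sets starved against control roots within each harvest. Leaving out an array leaves no residual for the fit of solution and time.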
